A study of Glycine max with 20 samples.

Results

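The genes described here are neighbours on chromosome 13 of soybean (Glycine max), in a stretch where many transcripts differed between a pair of near-isogenic lines that differ at the aphid resistance locus Rag2. They are the gene models of the deposited count table whose names begin with Glyma13g and carry a locus number from 24470 to 28000, and that had at least 10 reads in 2 or more libraries. Of 345 models in that range, 239 met the read threshold, out of 66210 models in the whole table. In such a name the number ahead of g gives the chromosome, and the locus number increases along it. The members were chosen by measured values: the bounds of the stretch were set around models already known to differ between the lines in these same libraries, so the line differences below, with their call counts, standard errors and counting intervals, describe the members and are no independent evidence of a difference.

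Leaf RNA was sequenced in 20 libraries, from 2 lines at 5 times with 2 biological replicates each. The labels name a resistant line with genotype Rag2 and a susceptible line with genotype rag2, sampled as uninfested leaves (0 h) and as leaves 4, 8, 24 and 48 h after infestation with aphids. Every later time was infested in both lines, so hours since infestation cannot be told apart from hours of sampling. Columns of the count table call the lines BC and W, and no label says which of the pair is resistant. The lines are therefore called BC and W, differences are BC minus W, and no direction relative to resistance is given. Lines of this kind are bred to be alike except near the locus under selection, although other donor DNA can remain elsewhere. Nothing in the files places Rag2 itself, so the name of the locus is used here only for the lines, and the stretch is identified by its locus numbers.

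Rag2 is a resistance locus on soybean chromosome 13 that limits growth of colonies of the soybean aphid, a phloem-feeding insect. Plant resistance loci of this kind often lie in clusters of nucleotide-binding leucine-rich repeat genes, whose products detect a pest or pathogen and switch on defence, and such clusters commonly differ in gene content between cultivars. The files pair the gene models with no gene names, and none of the 66210 models matched an identifier in the RefSeq gene table at hand, so no function is given to any member. For the same reason leaf markers could not be looked up, and the tissue label was not checked.

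The libraries held between 7558768 and 38227436 reads in gene models, and between 37293 and 181637 of these fell in the 239 members. Replicate 2 of BC at 0 h stood apart: its mean correlation with the other 19 libraries was 0.903, where the others had 0.916 to 0.959, and 7.46% of its reads lay outside gene models, where the others had 2.79% to 4.87%. It enters the 0 h level of every comparison with 0 h. Over the members, replicates of BC at 0 h lay a median of 0.53 apart on the log2 scale, and those of the other 9 groups 0.20 to 0.29.

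Levels are given as CPM, reads scaled to a common library size, with totals adjusted by TMM. They are not scaled by length, so they compare libraries for a given model and not models with each other. Over the 20 libraries the mean CPM of a member ran between 0.0694 and 461. It was below 1 in 42 members and above 10 in 98. The median over the 230 members with enough reads to be tested was 7.73 CPM, against 9.46 CPM over all 38918 models tested. The other 9 members had too few reads for the test. Of these, Glyma13g25170.1 had 35 reads in BC and 4 in W. Most of the BC reads, 10 and 21, lay in the libraries at 24 h, the largest of that line.

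The members nearest to the threshold from inside were Glyma13g25170.1, with 39 reads over all libraries, and Glyma13g25520.1, with 43, each with a second-highest library of 10 reads. The nearest from outside were Glyma13g27170.1, with 93 reads, and Glyma13g25130.1, with 64, whose second-highest library had 9 reads. Below the threshold lay 106 models of the range, 40 of them with no read in any library. Of the models before the first member, the nearest, Glyma13g24460.1, averaged 0.360 CPM in BC and 0.259 CPM in W, and the next, Glyma13g24450.1, averaged 10.7 CPM in BC and 11.9 CPM in W. The last member, Glyma13g28000.1, had a median of 5.73 CPM in BC, with 5.82 CPM in W, and just after it Glyma13g28010.1 averaged 45.9 CPM in BC and 37.5 CPM in W.

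Averaged over the 5 times, 21 of the 230 tested members were called different between the lines (edgeR, adjusted p below 0.05 over all models), 18 higher and 3 lower in BC. Over all 38918 models tested, 0.213% were called, 0.136% higher and 0.0771% lower in BC. The range was drawn around such calls, so the members' share says nothing further. All 21 had the same sign at each of the 5 times. In 16 of the 21 the 10 BC libraries and the 10 W libraries did not overlap, and over all 230 tested members this held for 17, with every BC library above every W library in 13 and below in 4. Over all models tested 0.113% did not overlap, 0.0617% with BC above and 0.0514% with BC below. Differences beyond 2-fold were found in 16 of the 21, beyond 4-fold in 11 and beyond 8-fold in 8. The remaining 209 tested members had either sign, 113 higher and 96 lower in BC, and 186 of the 230 (80.9%) differed by less than 1.5-fold, against 92.9% of all models tested. The median log2 difference of the 230 was 0.03, against 0.01 over all models tested, and the median absolute log2 difference was 0.20, against 0.13.

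**Figure D1:**
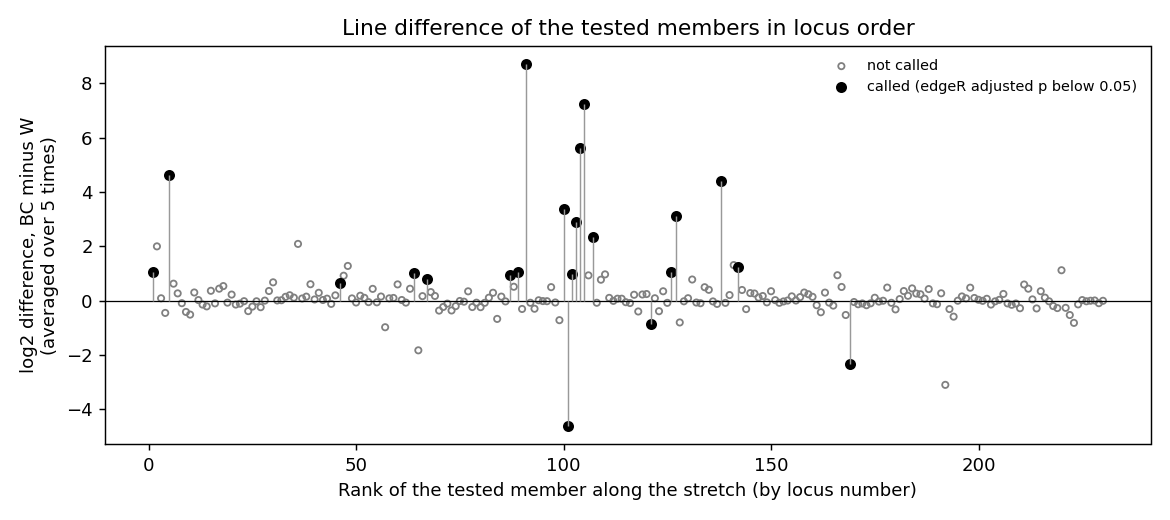
Each point is a tested member, placed by its rank in locus number along the stretch (horizontal axis) and by its log2 difference, BC minus W, averaged over 5 times (vertical axis); filled points are the 21 called members and open points the other 209. Called members lie between long runs of members near 0, with 7 of them at ranks 100 to 107 and none after Glyma13g27090.1.

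The calls were unevenly placed. The bins that follow were set by locus number. Between locus numbers 24470 and 24999, 2 of 40 tested members were called, and between 25000 and 25499, 3 of 31. The share peaked between 25500 and 25999, where 9 of 34 were called, and was 4 of 28 between 26000 and 26499. It then declined to 2 of 31 between 26500 and 26999 and 1 of 30 between 27000 and 27499, and none of the 36 tested members from 27500 to 28000 was called. The median absolute log2 difference did not follow the share in every bin: in locus order it was 0.21, 0.18, 0.29, 0.23, 0.17, 0.21 and 0.11. Uncalled runs were long: 40 tested members lay between the calls Glyma13g24510.1 and Glyma13g25050.1, and 61 after the last call.

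At the low end of the range, Glyma13g24470.1, the member that opens it, averaged 30.2 ± 8.26 CPM in BC, with 15.5 ± 6.95 CPM in W (SD, n = 10 each). It ran from 16.7 to 42.4 CPM with a median of 29.4 in BC, and from 7.67 to 30.3 CPM with a median of 14.6 in W. The lines overlapped, and they lay closest at 48 h, with 26.9 and 29.2 CPM in BC against 30.3 and 22.9 CPM in W. Glyma13g24510.1 was a faint transcript found mainly in BC, with 176 reads there and 22 in W. Its levels were 0.694 to 1.34 CPM in BC, median 0.952, and 0 to 0.244 CPM in W, median 0.0408, so the lines did not overlap. The W reads came from 5 libraries, those at 0 and 4 h and replicate 1 at 48 h. The ratio of BC to W was 8.95, with an exact 95% interval of 5.73 to 14.7 that covers counting error only.

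The next 3 calls had moderate differences. Glyma13g25050.1 averaged 15.3 ± 2.72 CPM in BC, with 9.77 ± 1.60 CPM in W (SD, n = 10 each), and its lowest BC library, at 11.8 CPM, lay just above its highest W library, at 11.4 CPM. Glyma13g25390.1 averaged 5.30 ± 1.56 CPM in BC, with 2.63 ± 0.720 CPM in W, and the lines overlapped. The gap was widest at 0 h, at 5.74 and 8.43 CPM in BC against 1.69 and 1.90 CPM in W. Glyma13g25440.1 had a median of 4.84 CPM in BC, with 2.86 CPM in W, without overlap (4.27 CPM at the lowest in BC, 4.15 CPM at the highest in W).

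From locus number 25750 the calls came closer together. Glyma13g25750.1 averaged 7.12 ± 1.05 CPM in BC, with 3.72 ± 0.966 CPM in W, and only replicate 2 of BC at 8 h, at 4.58 CPM, lay within the range of W. Glyma13g25780.1 was higher in BC in every library. It ran from 7.86 to 10.8 CPM in BC, median 9.04, and from 3.31 to 5.34 CPM in W, median 4.34, with a log2 difference between 0.84 and 1.27 at the single times. Glyma13g25800.1 was the most one-sided member, with 944 reads in BC and 2 in W, a ratio of 528 with an exact 95% counting interval of 146 to 4368. Every BC library held it, from 0.452 to 11.7 CPM with a median of 4.79, while 8 of the 10 W libraries had no read. Its level in BC was uneven between replicates, at 0.452 and 8.81 CPM at 24 h and at 4.43 and 11.7 CPM at 0 h.

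The densest group of calls ran from Glyma13g25930.1 to Glyma13g26010.1, bounds that are called members themselves. All 8 members with those locus numbers were tested and 7 were called, 6 higher and 1 lower in BC, against 0.213% of all models tested. Since the group was drawn around these calls, its share is a description only. The exception was Glyma13g26000.1 (2.21 CPM in BC and 1.27 CPM in W at the median). Neighbours differed in opposite directions here. Glyma13g25930.1 had 107 reads in BC and 14 in W, at a median of 0.618 CPM in BC and 0.0872 CPM in W. The next member, Glyma13g25940.1, was the reverse, with 13 reads in BC and 384 in W. Its level was 0 to 0.571 CPM in BC, median 0.0430, and 1.27 to 2.58 CPM in W, median 2.08, without overlap, and 4 of the 10 BC libraries had no read. W exceeded BC by a ratio of 26.4, with an exact 95% counting interval of 15.3 to 50.0.

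Next to them lay a modest and a large difference. Glyma13g25950.1 averaged 4.02 ± 0.497 CPM in BC, with 2.03 ± 0.602 CPM in W (SD, n = 10 each). Its log2 difference was 1.00. Glyma13g25970.1 averaged 9.99 ± 1.88 CPM in BC, with 1.42 ± 0.474 CPM in W, and stood at 7.54 CPM in its lowest BC library and 2.06 CPM in its highest W library. Its log2 difference of 2.88 over all times lay between 2.51 and 3.47 at the single times. Among called members with reads in all 20 libraries it had the highest log2 difference.

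Glyma13g25980.1 and Glyma13g25990.1 were again nearly confined to BC. Glyma13g25980.1 had 246 reads in BC and 9 in W, at 0.800 to 1.96 CPM in BC and 0 to 0.195 CPM in W. Glyma13g25990.1 had 417 reads in BC and 3 in W, a ratio of 156 with an exact 95% counting interval of 52.9 to 757. Its BC libraries ran from 1.60 to 3.72 CPM with a median of 2.42, and its 3 W reads came from 3 different libraries. The group closed with Glyma13g26010.1, at 1.72 ± 0.694 CPM in BC, with 0.340 ± 0.163 CPM in W (SD, n = 10 each), without overlap. The table's line for reads aligned to several places holds 0 in every library, and how such reads were handled is not given in the sources used here. Values of members that are close copies of each other are therefore uncertain, and the files do not tell which members these are.

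Beyond the dense group the differences thinned out. Glyma13g26250.1 was lower in BC, at 3.26 ± 0.565 CPM against 5.90 ± 0.918 CPM in W (SD, n = 10 each), without overlap by a narrow margin (4.24 CPM at the highest in BC, 4.39 CPM at the lowest in W). Glyma13g26310.1 averaged 3.77 ± 0.667 CPM in BC, with 1.83 ± 0.436 CPM in W, without overlap. Its neighbour Glyma13g26320.1 was fainter and more scattered, with 74 reads in BC and 17 in W and overlapping libraries. Both neighbours were higher in BC.

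A further pair of calls lay near locus number 26600. Glyma13g26590.1 had 250 reads in BC and 20 in W, at 0.727 to 2.03 CPM in BC and 0 to 0.184 CPM in W, a ratio of 14.0 with an exact 95% counting interval of 8.86 to 23.3. Glyma13g26640.1 averaged 3.51 ± 0.805 CPM in BC, with 1.53 ± 0.437 CPM in W, without overlap. Between them lay Glyma13g26600.1, a transcript with many reads whose lines overlapped, at medians of 151 CPM in BC and 179 CPM in W.

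The last call, Glyma13g27090.1, was lower in BC in every library. It ran from 2.90 to 6.82 CPM in BC with a median of 4.09, and from 19.5 to 24.7 CPM in W with a median of 21.9. The log2 difference was -2.32, with a standard error of 0.10, and lay between -2.57 and -1.80 at the single times. W libraries of this transcript spread by an SD of 1.54 CPM around a mean of 21.8 CPM over 5 times.

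**Figure D2:**
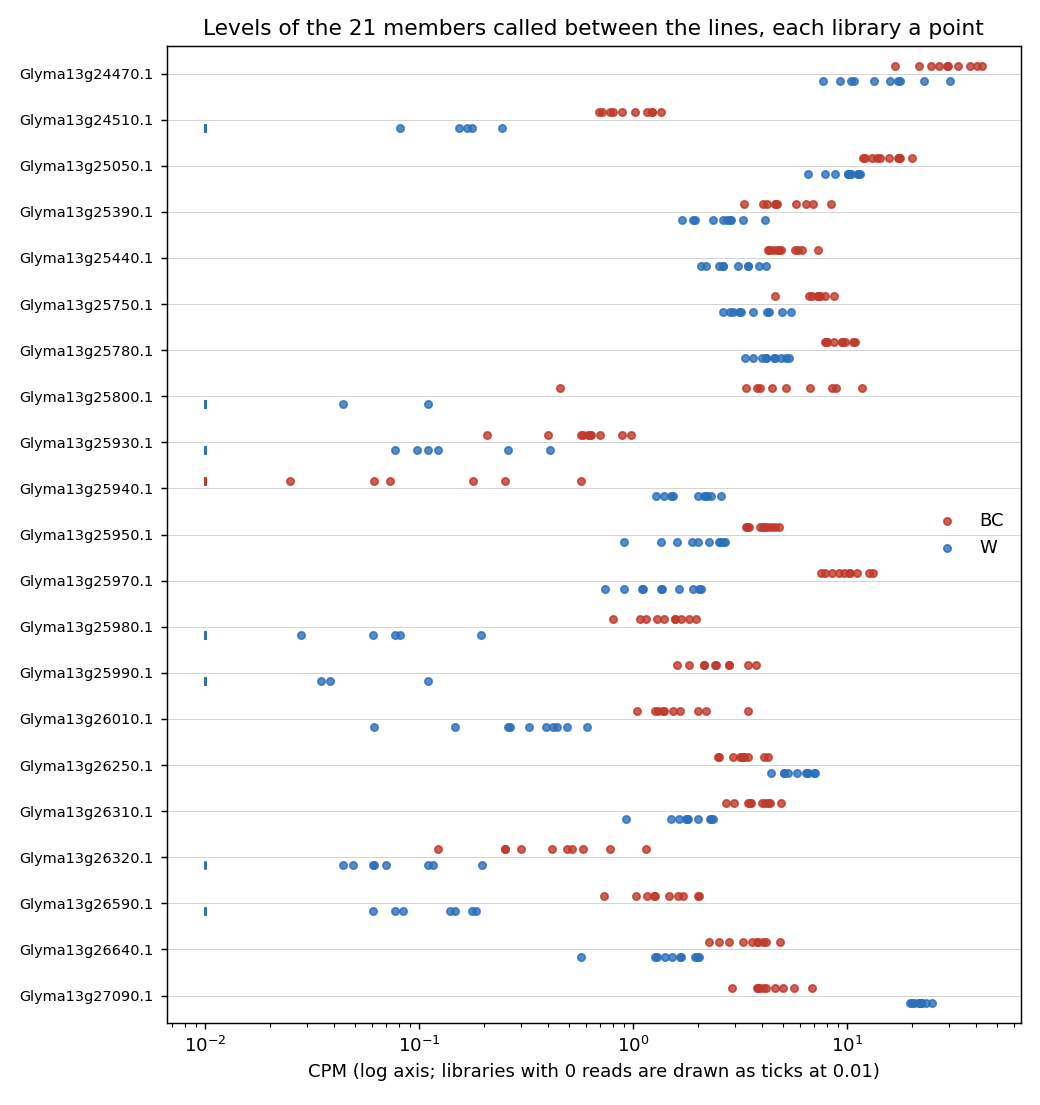
Each row is a called member in locus order, with its CPM in the 10 BC libraries (red, upper) and the 10 W libraries (blue, lower) on a log axis; ticks at 0.01 stand for libraries with 0 reads. Glyma13g25800.1, Glyma13g25990.1 and Glyma13g25980.1 show most W libraries at or near 0, and Glyma13g25940.1 the reverse.

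**Figure D3:**
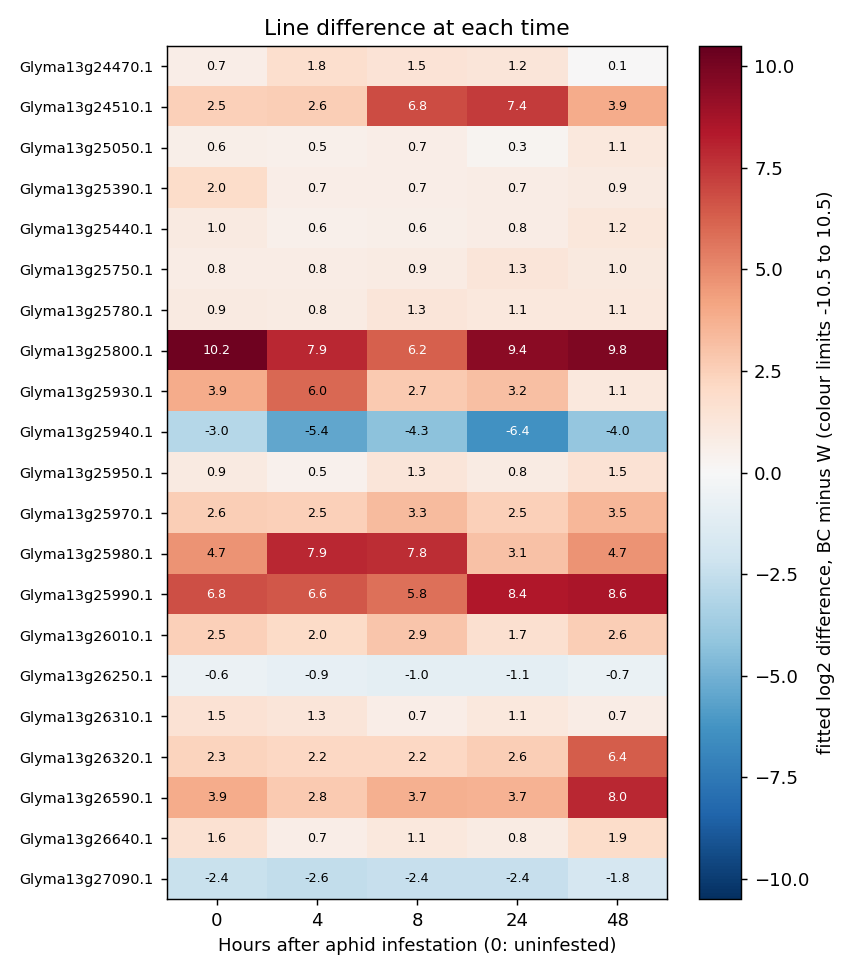
Cells give the fitted log2 difference, BC minus W, of each called member (rows) at each time in hours (columns), with red for higher and blue for lower in BC. Each row keeps its colour across the 5 times; where a line had 0 reads at a time, the printed size depends on the fit's prior count and is no bound.

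A few uncalled members were also far apart. Glyma13g25410.1 had every BC library below every W library, at 0.0631 to 0.714 CPM in BC and 0.726 to 1.41 CPM in W, on 51 reads in BC and 189 in W. Among the others, Glyma13g24480.1 had 116 reads in BC and 30 in W, and Glyma13g25080.1 had 156 reads in BC and 79 in W. In others a few libraries held most reads. Glyma13g27470.1 had 2 reads in BC and 79 in W, and replicate 1 of W at 4 h and at 8 h stood at 2.65 and 1.32 CPM while 6 W libraries had none. Glyma13g26630.1 reached 17.7, 19.9 and 16.3 CPM in 3 BC libraries and 9.84 CPM in a W library, against medians of 3.05 CPM in BC and 1.56 CPM in W. Together with Glyma13g24940.1 and Glyma13g27820.1 these were the 7 uncalled members past 2-fold, and they are named here after their values were seen.

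The bounds of the stretch were drawn around line differences, and the time courses were tested. The read threshold used these same libraries. Over the 5 times, averaged over both lines, 5 of the 230 tested members changed (edgeR joint test, adjusted p below 0.05), or 2.17%, against 5.33% of all models tested. They were Glyma13g24510.1, Glyma13g24920.1, Glyma13g26110.1, Glyma13g26930.1 and Glyma13g27590.1. All but Glyma13g24510.1 had their highest or lowest level at 8 h in both lines, and in each of them the 4 libraries at 8 h lay beyond the other 16. The joint count rose when either BC library at 0 h was left out. It rose more without replicate 1, which leaves replicate 2, the library that stands apart, alone at that point. No share over all models is given for these 2 fits, so nothing about the stretch is read from their counts. All 5 members were among the calls in both fits.

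Glyma13g26930.1 fell sharply at 8 h. The BC libraries, from 0 to 48 h in order of time, gave 194 and 190, then 96.3 and 111, then 26.4 and 18.9, then 173 and 181, then 179 and 167 CPM. Those of W gave 143 and 147, then 144 and 116, then 35.3 and 23.2, then 208 and 188, then 243 and 204 CPM. The libraries at 8 h were below all others, and those at 24 h lay between 173 and 208 CPM. The log2 change was -2.70 at 8 h against 0 h (SE 0.19, edgeR adjusted p = 3.73e-06), -2.18 at 8 h against 4 h (SE 0.18, edgeR adjusted p = 4.63e-05) and 2.86 at 24 h against 8 h (SE 0.19, edgeR adjusted p = 1.78e-06). All 3 passed under each of 25 alternative fits.

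Glyma13g26110.1 had the same shape at lower levels and began to fall by 4 h. The BC libraries, from 0 to 48 h in order of time, gave 11.2 and 15.0, then 5.92 and 4.24, then 2.27 and 2.45, then 24.5 and 18.2, then 16.5 and 11.9 CPM. Those of W gave 23.9 and 11.5, then 5.03 and 5.30, then 2.20 and 0.552, then 16.7 and 21.8, then 25.2 and 18.9 CPM. It was the sole member called at 4 h against 0 h, where all 4 libraries at 4 h lay below the 4 at 0 h. The log2 change was -1.56 at 4 h against 0 h (SE 0.30, edgeR adjusted p = 0.0162), -3.14 at 8 h against 0 h (SE 0.34, edgeR adjusted p = 7.57e-05) and 3.55 at 24 h against 8 h (SE 0.34, edgeR adjusted p = 2.05e-05). The change at 4 h did not pass in 5 of the 25 alternatives: limma voom (adjusted p = 0.209) and the fits without replicate 2 of BC at 0 h, replicate 1 of W at 0 h, or either W library at 4 h.

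Glyma13g27590.1 did the opposite and peaked at 8 h. The BC libraries, from 0 to 48 h in order of time, gave 0.799 and 2.71, then 8.61 and 4.96, then 35.8 and 29.6, then 3.93 and 2.36, then 1.25 and 1.39 CPM. Those of W gave 4.38 and 0.530, then 7.15 and 15.2, then 20.3 and 42.4, then 0.243 and 1.41, then 2.28 and 2.07 CPM. Every library at 4 h also lay above the 4 libraries at 0 h, though that change did not pass the test. The log2 change was 4.03 at 8 h against 0 h (SE 0.62, edgeR adjusted p = 0.00167) and -4.28 at 24 h against 8 h (SE 0.61, edgeR adjusted p = 8.77e-04).

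Glyma13g24920.1 peaked at 8 h as well, with a smaller change. The BC libraries, from 0 to 48 h in order of time, gave 2.76 and 2.57, then 4.70 and 3.82, then 5.87 and 7.03, then 1.95 and 2.46, then 3.36 and 4.67 CPM. Those of W gave 2.54 and 2.71, then 4.64 and 2.96, then 5.60 and 7.73, then 2.12 and 2.68, then 1.96 and 2.07 CPM. Both lines were close to each other until 24 h. The log2 change was 1.31 at 8 h against 0 h (SE 0.21, edgeR adjusted p = 0.00194) and -1.51 at 24 h against 8 h (SE 0.21, edgeR adjusted p = 5.15e-04). In limma voom this member did not pass at 8 h against 0 h (adjusted p = 0.0597) or in the joint test (adjusted p = 0.0911), and Glyma13g27590.1 did not pass the joint test (adjusted p = 0.0614).

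Glyma13g24510.1 passed the joint test with little room (edgeR adjusted p = 0.0351). It was the sole member called both over time and between the lines, and it reached 10 reads only in BC libraries. Its W level, described above, was at 0 in all 4 libraries at 8 and 24 h, and its BC level was 0.694 and 0.801 CPM at 8 h, against 1.16 and 0.714 CPM at 0 h. The call was lost in 19 of 25 alternatives, where its adjusted p reached 0.188 at the highest, in limma voom.

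**Figure D4:**
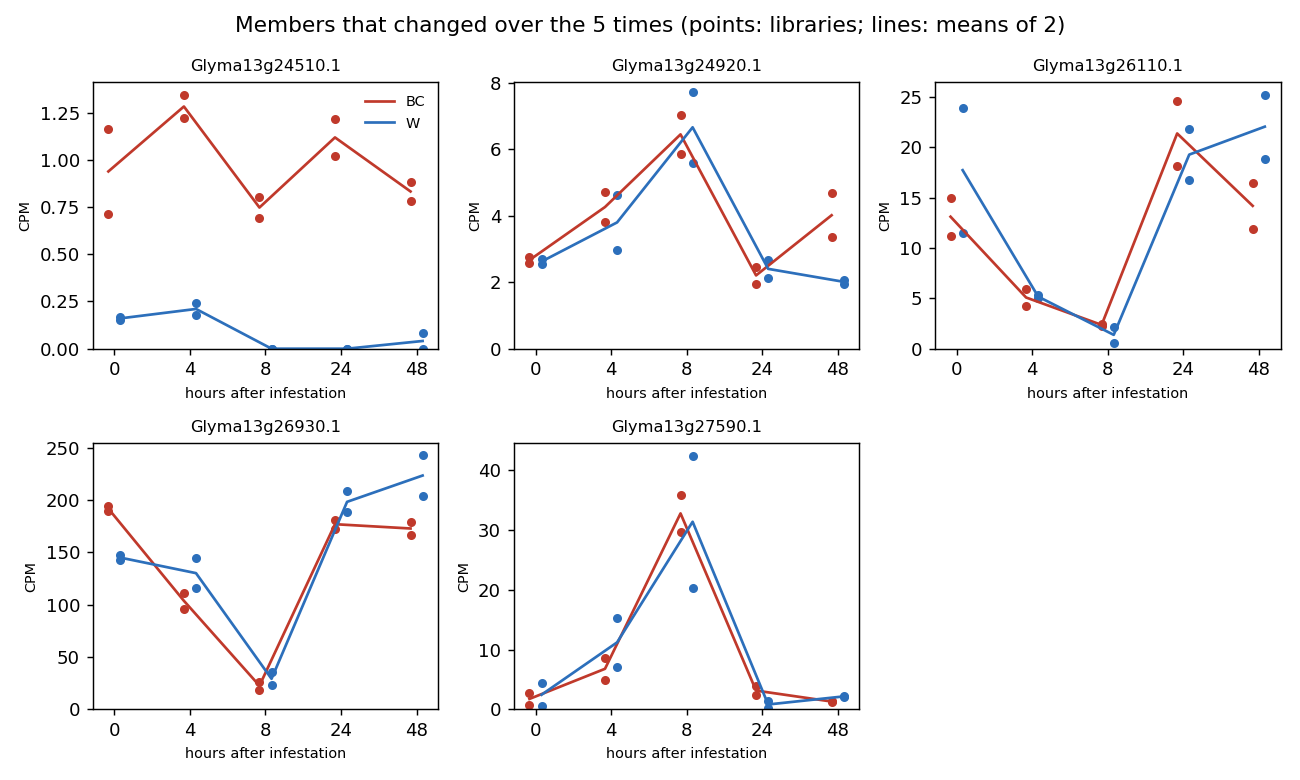
CPM (vertical axes, each from 0) of the 5 members that changed over time, at 0, 4, 8, 24 and 48 h after infestation (evenly spaced on the horizontal axis); points are libraries and lines join the means of 2, in red for BC and blue for W. Glyma13g26110.1 and Glyma13g26930.1 dip at 8 h, and Glyma13g24920.1 and Glyma13g27590.1 peak there, in both lines.

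Between single times, with all 20 libraries in the fit, edgeR called members in the 4 contrasts that involve 4 or 8 h and in none of the other 3. The contrasts with 0 h share the 0 h libraries. At 4 h against 0 h, 1 of 230 tested members fell and none rose, against 1.64% of all models tested that changed (1.06% higher and 0.583% lower). At 8 h against 0 h, 2 rose and 2 fell, against 3.93% of all models tested (1.87% higher and 2.05% lower). At 8 h against 4 h, 2 fell, against 1.41% of all models tested (0.319% higher and 1.09% lower). They were Glyma13g26930.1 and Glyma13g26110.1, the second by 1.58 on the log2 scale (SE 0.34, edgeR adjusted p = 0.0295). That call did not pass in 7 of 25 alternatives, which were limma voom and the fits without either W library at 4 h, replicate 2 of W at 8 h, replicate 1 of BC at 4 h or either BC library at 8 h, each leaving 1 member.

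At 24 h against 8 h, 3 members rose and 3 fell, against 4.24% of all models tested (2.20% higher and 2.04% lower). Beside the 4 members above, Glyma13g27800.1 rose and Glyma13g26690.1 fell, both named after their values were seen. Glyma13g27800.1 was at 121 and 63.9 CPM in BC and 59.0 and 190 CPM in W at 24 h, and at 38.0 and 52.7 CPM in BC and 28.4 and 28.3 CPM in W at 8 h. The 4 libraries at 24 h thus lay above the 4 at 8 h, a log2 change of 1.58 (SE 0.39, edgeR adjusted p = 0.0337). This call was lost in 8 of 25 alternatives: with no filter on low counts, and without either BC or either W library at 8 h, replicate 1 of BC at 24 h, replicate 1 of BC at 48 h or replicate 2 of W at 24 h (adjusted p = 0.181, the highest). Glyma13g26690.1 was at 5.11 and 4.23 CPM in BC and 4.07 and 3.51 CPM in W at 24 h, and at 6.25 and 7.56 CPM in BC and 6.26 and 8.40 CPM in W at 8 h. Its log2 change was -0.76 (SE 0.20, edgeR adjusted p = 0.0476). This call was lost in 21 of 25 alternatives, with an adjusted p of up to 0.216, and held in DESeq2, in limma voom and without either BC library at 0 h.

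No member passed at 24 h or 48 h against 0 h, or at 48 h against 24 h. In edgeR 18 of 230 members had an unadjusted p below 0.05 at 24 h against 0 h. There were 27 at 48 h against 0 h and 13 at 48 h against 24 h. In the same order, 3498, 4384 and 2539 of all 38918 models tested had such a p. DESeq2 and limma voom called 0 members in all 3 contrasts. Over all models tested, edgeR called 0% at 24 h and 0.0257% at 48 h against 0 h, and 0% at 48 h against 24 h. Without replicate 1 of BC at 0 h, which leaves replicate 2 alone there, each contrast with 0 h called more members. Without replicate 2 these contrasts called few members or none. Leaving out either library gave more members at 24 h against 8 h. No share over all models is given for these fits, so nothing about the stretch is read from their counts. Median log2 changes of the 230 members stayed near 0, between -0.08 at 48 h against 0 h and 0.00 at 8 h against 4 h.

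Whether the lines differed in their time courses was tested as a line-by-time term. No member passed in edgeR (0% of all models tested), and the smallest adjusted p among members was 0.597. An unadjusted p below 0.05 was found in 17 of 230 members and in 3121 of all 38918 models tested. DESeq2 called 1 member and limma voom called 0. Without replicate 1 of BC at 0 h, which leaves replicate 2 alone there, edgeR called some members, and without replicate 2 it called none. No share over all models is given for these fits, so nothing is read from this. The 3 members with the smallest p were Glyma13g24510.1, Glyma13g24520.1 and Glyma13g26650.1, and none of them passed.

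Glyma13g24520.1 was the member called by DESeq2 (adjusted p = 0.0236). At 0 h it stood at 0.727 and 0.857 CPM in BC, against 5.07 and 2.34 CPM in W, and at 8 h at 1.20 and 1.96 CPM in BC, against 0.220 and 0.429 CPM in W. At 48 h the lines overlapped, with 2.58 and 1.52 CPM in BC and 2.53 and 1.29 CPM in W. Glyma13g26650.1 was at 1.16 and 0.571 CPM in BC at 0 h, against 2.08 and 2.01 CPM in W, and at 1.80 and 1.77 CPM in BC at 48 h, against 0.489 and 0.388 CPM in W. For both, BC was the lower line at 0 h and the higher line at a later time, in 2 libraries each.

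Counted time by time, the line difference passed for 3 members at 0 h, 4 at 4 h, and 2 at 8 h. It passed for 4 at 24 h and for 2 at 48 h. Over all models tested the shares were 0.0180%, 0.0308%, 0.0257%, 0.0308% and 0.0154%, and since the range was drawn around such calls nothing is read from this. Single times rest on 2 libraries a line.

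The 6 members with the most reads took 29.8% to 41.6% of the summed CPM of all members in a library. They were Glyma13g24640.1, Glyma13g26600.1, Glyma13g26990.1, Glyma13g27050.1, Glyma13g27490.1 and Glyma13g27570.1. None was called between the lines or over time (edgeR joint adjusted p between 0.270 and 0.934). Glyma13g27050.1 averaged 542 ± 329 CPM in BC, with 379 ± 115 CPM in W (SD, n = 10 each), and its highest value, 1386 CPM, was in replicate 2 of BC at 0 h. Glyma13g27570.1 was far steadier, at 287 ± 38.6 CPM in BC, with 273 ± 33.5 CPM in W.

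The other members of this group varied over the 10 libraries of a line, a spread that mixes times and replicates. Glyma13g27490.1 averaged 235 ± 97.5 CPM in BC, with 353 ± 171 CPM in W, and Glyma13g24640.1 averaged 214 ± 124 CPM in BC, with 232 ± 80.6 CPM in W. Glyma13g26990.1 averaged 169 ± 54.1 CPM in BC, with 175 ± 35.4 CPM in W. In all of them the ranges of the lines overlapped.

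**Figure D5:**
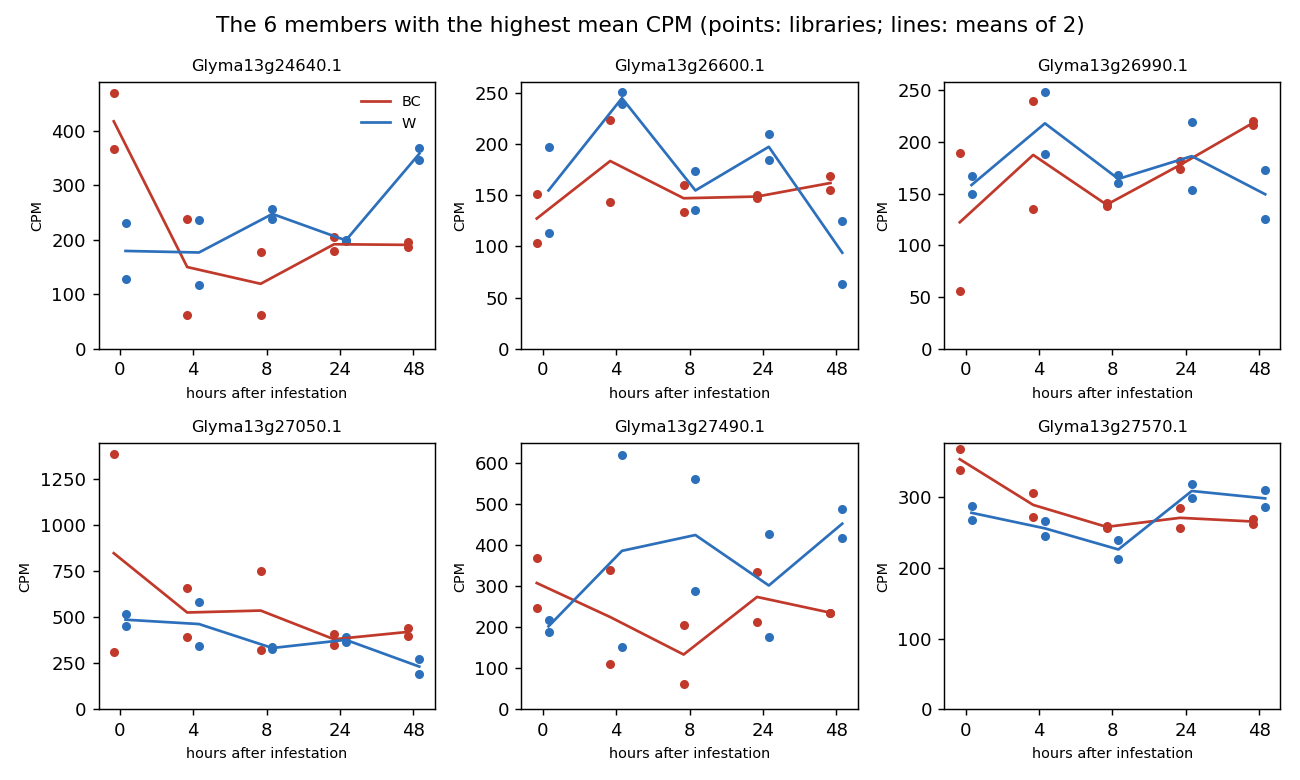
CPM (vertical axes, each from 0) of the 6 members with the highest mean CPM at 0, 4, 8, 24 and 48 h after infestation; points are libraries and lines join the means of 2, in red for BC and blue for W. Replicates of a group often lie as far apart as the lines do, and the highest point, 1386 CPM for Glyma13g27050.1, is replicate 2 of BC at 0 h.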

How the data were processed

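Leaf mRNA of 2 soybean lines was sequenced at 5 times with 2 libraries per line and time. The authors deposited whole-number read counts per gene model in 1 table of 66210 models. The tools named, per the submitters' processing notes, are HTSeq 0.5.3, TopHat 1.4.1, Cuffdiff 1.3.0 and edgeR, with no role given. Genome build, annotation release, strand setting and handling of reads with several alignments are not given in the sources used here. Whether reads of both lines aligned equally well to the reference was not tested.

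On 5 lines the table gives read classes in place of a gene, and these were not used. Of all reads in the table, those outside any model came to 2.79% to 7.46% of a library and ambiguous reads to 1.43% to 1.86%, and the other 3 lines held 0. Each library had 7558768 to 38227436 reads in models. Columns carry the line and the time; lines were taken from the headers and times from the labels. Within each group the 2 replicates were not duplicates of each other (chi-square per degree of freedom between replicates 5.70 to 87.6).

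All 20 libraries were fitted at once in edgeR 4.0.16 (R 4.3.3), with its filter on low counts, TMM scaling, 10 groups of line and time, and the robust quasi-likelihood test, which had 10 residual degrees of freedom. Adjusted p-values are Benjamini-Hochberg over 38918 models, two-sided, at a threshold of 0.05. The labels call the replicates biological and do not say what separates them. Replicate numbers were not used to pair the libraries in this fit. Alternatives were DESeq2 1.42.0, limma 3.58.1 with voom and library weights, median-of-ratios size factors, no filter, a replicate block and leaving out each library. The fit was also run on simulated counts. These held no deviating library and no change in faint models, so that run does not cover such cases. Intervals on ratios of reads are exact and cover counting error only.

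Members and lists were chosen with earlier results of these data known. Named were members called between the lines, those nearly absent in a single line, those called over time (at each pair of times the 2 largest rises and 2 largest falls), the 3 smallest line-by-time p, the 6 highest mean CPM, and those at the ends and at the read threshold.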

Additional observations from a re-analysis of the deposited data

Results flagged for a closer look

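In 67 groups of libraries checked for a single outlying value, 8 had a library far from the others. Chance alone gives about 1 in 20 groups, and the values are listed without a cause, which was not tested.

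Among the 10 BC libraries, replicate 2 at 8 h was low for Glyma13g25750.1, at 4.58 CPM. Replicate 2 of BC at 0 h, the library that stands apart in the whole table, was high for Glyma13g25940.1, at 0.571 CPM, and for Glyma13g26010.1, at 3.43 CPM.

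Among the 10 W libraries, replicate 1 at 8 h was high for Glyma13g25800.1 and Glyma13g25990.1, at 0.110 CPM each, which is a single read in both. Replicate 2 of W at 24 h was high for Glyma13g25980.1, at 0.195 CPM. Replicate 1 of W at 48 h was low for Glyma13g26640.1, at 0.571 CPM. Among the 4 libraries at 8 h, replicate 2 of W was low for Glyma13g26110.1, at 0.552 CPM.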

How the results depend on the processing

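The count of members called between the lines lay between 17 and 25 when a library was left out, with 31 in DESeq2 and 20 in limma voom. The line difference of a named member moved by more than the spread between replicates in 11 cases, all in members with few W reads: 6 in limma voom, each nearer to 0, and 5 without a W library, each farther from 0. Counts over time moved more. Shares over all models are not given for these alternative fits. Their counts therefore show only how calls depend on the processing, and do not set the members against other models. DESeq2 called 21 members in the joint time test, 6 at 4 h and 7 at 8 h against 0 h, 4 at 8 h against 4 h, 10 at 24 h against 8 h and 1 for line by time. limma voom called 2 in the joint test, 0 at 4 h and 3 at 8 h against 0 h, and 1 at 8 h against 4 h. All 6 members that edgeR called at 24 h against 8 h also passed in limma voom. Leaving out a library gave 4 to 28 members in the joint test, 0 to 28 at 4 h, 4 to 22 at 8 h, 0 to 15 at 24 h and 0 to 27 at 48 h against 0 h, 1 to 3 at 8 h against 4 h, 4 to 10 at 24 h against 8 h, and 0 to 11 for line by time. The highest of these for contrasts with 0 h came without replicate 1 of BC at 0 h, where the lone replicate 2 is assumed to vary like the other groups. The 4 calls at 8 h against 0 h and all 5 joint calls were kept with and without that library.

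Same-numbered libraries showed no common deviation over the groups (45 pairs of groups, median correlation -0.0196, range -0.488 to 0.511). In 16 of the 45 pairs the correlation was above 0.1. With a replicate block the joint test called 4 members, 5 changed at 8 h against 0 h, 5 at 24 h against 8 h, and 21 differed between the lines. With 2 libraries a group, members of few reads could be judged only for large changes.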

Other observations

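The time at which a member was highest, as the mean of both lines, was spread over the course. Of 230 tested members, in order of time from 0 to 48 h, 61, 42, 46, 32 and 49 were highest. The share highest at 0 h was 26.5%, against 23.0% of all models tested, and replicate 2 of BC at 0 h, the library that stands apart, is among the 4 libraries behind it. The shares highest at 4, 8, 24 and 48 h were 18.3%, 20.0%, 13.9% and 21.3%, against 18.6%, 22.9%, 16.4% and 19.2% of all models. In order of time from 0 to 48 h, 38, 40, 54, 37 and 61 members had their lowest mean. These were 16.5%, 17.4%, 23.5%, 16.1% and 26.5%, against 22.2%, 17.3%, 21.2%, 14.6% and 24.7% of all models. No test was run on these counts.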
